A study of Mus musculus with 8 samples.

Results

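The genes described here build the muscle side of the neuromuscular junction, the synapse through which a motor nerve drives a muscle fibre. They are 10 genes taken by symbol from a table of 23420, namely the acetylcholine receptor subunits Chrna1, Chrnb1, Chrnd, Chrng and Chrne, the clustering proteins Musk, Dok7, Rapsn and Lrp4, and the esterase Ache. RNA came from C2C12, mouse myoblasts in permanent culture that exit the cell cycle and form multinucleate myotubes in low serum. They were grown in 10% fetal bovine serum and then held for 48 h in medium with 2% horse serum. The 4 groups of 2 libraries were total RNA of cells overexpressing AUF1, total RNA of WT cells, RNA on heavy polysomes (mRNA carrying many ribosomes) of cells overexpressing AUF1, and RNA on heavy polysomes of WT cells. Every group received the same medium, and no nerve was present. The sources used here do not give the vector, the treatment of WT cells or the clonality of the AUF1 cells, so AUF1 itself and a difference between cell lines cannot be told apart. Since no label ties the 2 libraries of a group to separate cultures, each p-value reflects the spread of the libraries alone, and that spread may be technical.

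The muscle acetylcholine receptor is a ring of subunits around an ion channel. It carries a pair of alpha subunits (Chrna1), a beta (Chrnb1), a delta (Chrnd) and, in embryonic or denervated muscle, a gamma (Chrng), which an epsilon subunit (Chrne) replaces as the synapse matures. Agrin released by the nerve binds Lrp4, which activates the receptor tyrosine kinase Musk. The adaptor Dok7 is needed for full Musk activity, and rapsyn (Rapsn) holds receptors in clusters beneath the nerve ending. Acetylcholinesterase (Ache) breaks down the transmitter. In cultured myoblasts the receptor subunit genes are switched on during differentiation by myogenic factors that bind E-boxes, short motifs written CANNTG.

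The promoters of 4 receptor subunits are shown because E-boxes are the motif of the myogenic factors and the 4 differ in the forms they hold. Each runs from 250 bases before to 50 bases after the start given by RefSeq (GRCm38.p6, mm10), and 7 of the 10 genes matched an entry. Capitals mark E-boxes (CANNTG, which reads as the same pattern on both strands) and, in Chrne, also 1 N-box (CCGGAA, searched on both strands), the motif of Ets-family factors such as GABP at synaptic genes. No motif overlapped another in these 4 windows apart from CAGCTG, which is itself one form of the E-box. Chrna1 lies at chr2:73580289-73580588, minus strand, Chrng at chr1:87205561-87205860, plus strand, Chrnb1 at chr11:69795888-69796187, minus strand, and Chrne at chr11:70619145-70619444, minus strand.
Chrna1: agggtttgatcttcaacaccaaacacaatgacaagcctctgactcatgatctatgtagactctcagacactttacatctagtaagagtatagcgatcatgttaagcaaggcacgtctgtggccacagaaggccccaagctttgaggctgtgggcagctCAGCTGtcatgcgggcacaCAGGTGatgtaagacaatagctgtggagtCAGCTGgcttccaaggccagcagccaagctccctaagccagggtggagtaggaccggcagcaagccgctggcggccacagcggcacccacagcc
Chrng: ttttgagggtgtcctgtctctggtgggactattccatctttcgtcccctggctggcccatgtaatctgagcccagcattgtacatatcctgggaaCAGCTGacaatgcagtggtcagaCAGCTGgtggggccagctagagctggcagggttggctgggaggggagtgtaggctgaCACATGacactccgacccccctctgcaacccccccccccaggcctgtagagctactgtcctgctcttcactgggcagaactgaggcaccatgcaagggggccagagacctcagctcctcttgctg
Chrnb1: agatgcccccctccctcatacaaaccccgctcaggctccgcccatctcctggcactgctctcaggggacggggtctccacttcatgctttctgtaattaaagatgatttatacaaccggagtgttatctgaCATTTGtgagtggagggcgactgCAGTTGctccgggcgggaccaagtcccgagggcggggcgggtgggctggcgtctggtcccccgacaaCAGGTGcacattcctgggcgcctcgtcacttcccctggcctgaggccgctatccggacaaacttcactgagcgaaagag
Chrne: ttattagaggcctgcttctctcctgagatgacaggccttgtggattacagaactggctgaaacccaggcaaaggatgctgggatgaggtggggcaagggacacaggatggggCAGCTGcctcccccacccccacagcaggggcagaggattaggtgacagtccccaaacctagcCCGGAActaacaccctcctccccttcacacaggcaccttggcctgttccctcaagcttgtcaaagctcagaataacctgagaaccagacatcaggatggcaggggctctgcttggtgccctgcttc

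Chrna1 held 3 E-boxes, beginning 92, 73 and 44 bases before the start, and those at 92 and 44 read CAGCTG. Chrng also held 3, at 155, 132 and 75 bases before the start, and those at 155 and 132 read CAGCTG. The Chrnb1 window had 3 E-boxes, with 0 of the CAGCTG form, and that of Chrne had 1, which read CAGCTG. Musk had 3 with 1 CAGCTG, Ache 1, and Dok7 1 in one of its 2 promoter entries and 0 in the other. Of 32851 promoters of the same length, 72.3% held at least 1 E-box, 17.6% at least 3, 16.3% at least 1 CAGCTG and 14.9% an N-box. A match describes letters and not binding.

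Hnrnpd encodes AUF1, which binds AU-rich stretches of mRNA, so in 3′ untranslated regions the pentamer ATTTA was counted in 1 annotated transcript per gene (GENCODE M21, mm10). Chrna1 had 8 ATTTA in 2961 bases, Chrnd, Lrp4 and Ache had 2 each, Chrnb1, Chrng and Musk 1 each, and Dok7, Rapsn and Chrne 0. Among 21024 genes 62.9% held at least 1, and among the 2239 with a 3′ untranslated region within 1.25 times the length of that of Chrna1 the share was 96.2% and the median 5. The longer element TTATTTATT occurred 2 times in Chrna1 and 0 times in the other members, against 7.19% of genes with at least 1, or 13.8% at matched length. The 2 matches in Chrna1 overlap within 1 run, which also holds 3 of its 8 ATTTA. The overlapping run in Chrna1 lies at chr2:73564483-73564511, minus strand, and that in Ache at chr5:137294285-137294313, plus strand, with ATTTA in capitals.
Chrna1 site: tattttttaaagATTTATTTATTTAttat
Ache site: tgtatatacactATTTATTTAagggctgg

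The libraries held 34917660 and 26935603 gene counts in AUF1 total (replicates 1 and 2), 25730815 and 25281224 in WT total, 33085255 and 27040518 in AUF1 polysome and 33860652 and 28367635 in WT polysome. Replicate number separated the libraries of every group. On the first principal component, with 51.8% of the variance, replicate 1 libraries lay on one side and replicate 2 libraries on the other, while the second, with 32.0%, separated AUF1 from WT. Genotype differences are therefore given within a replicate number, as log2 CPM (gene counts relative to library size after TMM normalisation, prior count 2) of AUF1 minus WT. Hnrnpd stood at 448 and 397 CPM in AUF1 total and 64.2 and 99.6 CPM in WT total, and at 549 and 427 CPM in AUF1 polysome and 106 and 131 CPM in WT polysome, so each AUF1 library was above each WT library. Markers of muscle identity were present. Of the motor neuron markers, Chat and Mnx1 had 0 counts in each of the 8 libraries. Tubb3 lay between 33.6 and 103 CPM and Nefl between 2.27 and 8.18 CPM. Isl1 stood at 1.53 CPM in WT polysome replicate 1 and at no more than 0.0405 CPM in the other libraries, and Slc5a7 lay between 0 and 0.349 CPM. Of the Schwann cell markers, Sox10 and S100b lay between 0 and 0.398 CPM, while Pmp22 lay between 9.25 and 191 CPM.

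Transcripts of the receptor subunits Chrnd and Chrng were several times higher with AUF1 than in WT, in total RNA and on polysomes and within both replicate numbers. Dok7 showed the same pattern, Chrnb1 and Chrna1 a smaller one, and Rapsn and Lrp4 differed little or were lower. In the fit without the replicate number 0 of 9 tested genes passed, where 1.02% of all genes did in total RNA and 0.349% on polysomes, and SE in total RNA ran from 0.29 (Rapsn) to 1.78 (Chrna1). With the number as a block in the model, an alternative fit, Chrna1, Chrnb1, Chrnd, Chrng and Dok7, 5 of 9, rose with AUF1 in both fractions, where 6.99% of all genes rose in total RNA and 6.71% on polysomes. In bulk RNA, fewer cells of a type and less RNA per cell cannot be told apart.

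**Figure D1:**
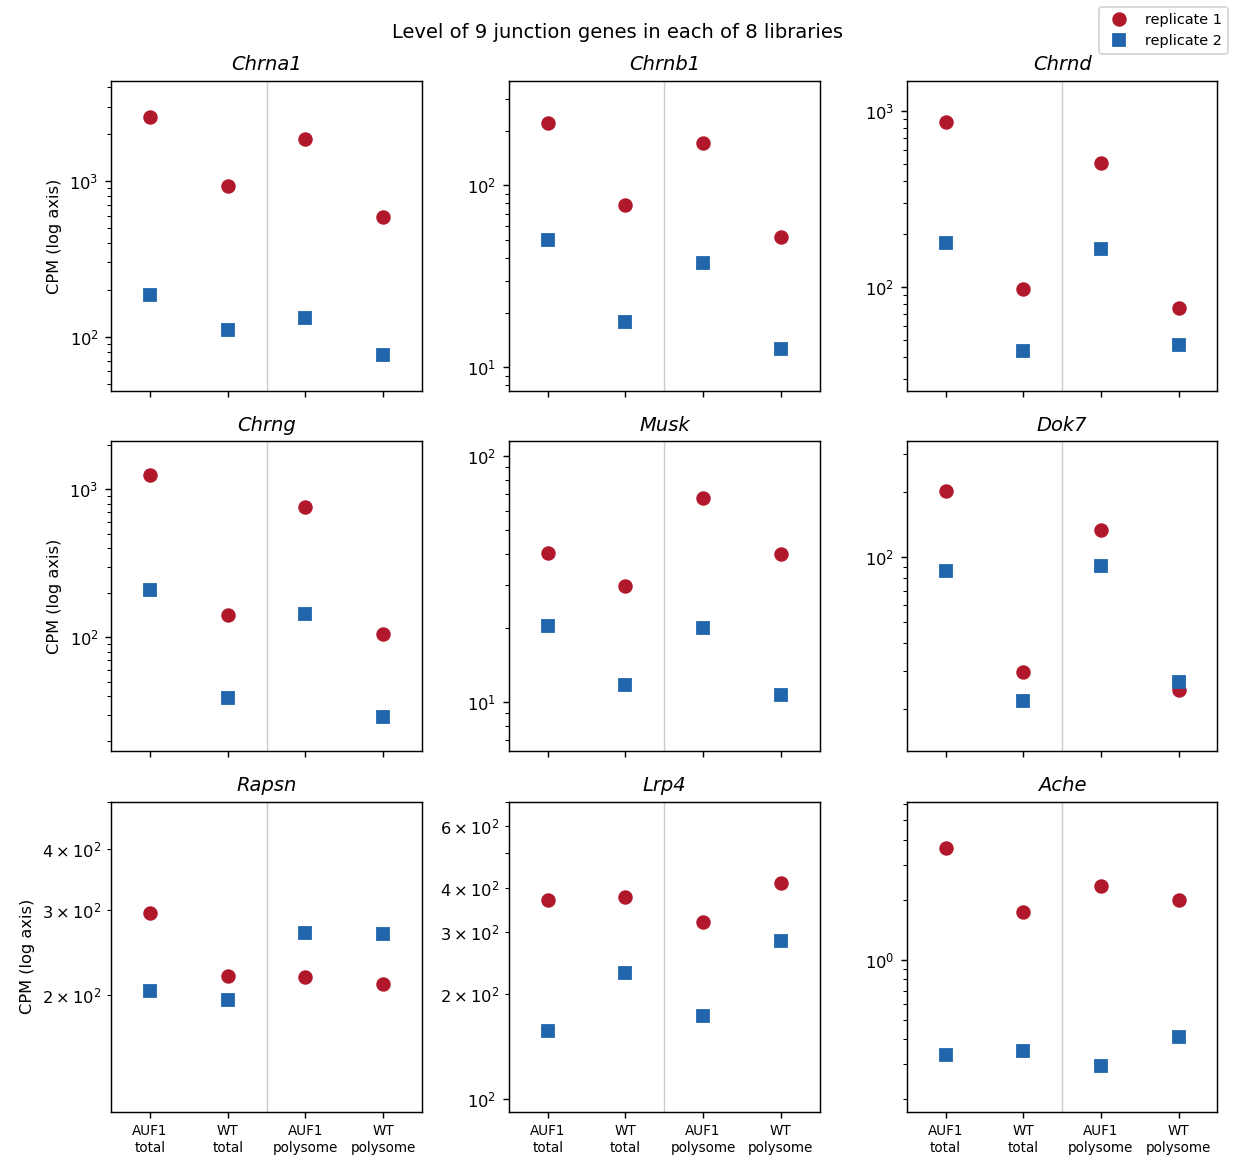
Level of 9 genes in each library, in CPM on a log axis with its own range in each panel, with AUF1 left of WT for total RNA and for polysomes. Circles are replicate 1 and squares replicate 2; Chrnd, Chrng and Dok7 have both AUF1 libraries above both WT libraries in each fraction, and Chrna1 is separated mainly by replicate number. Chrne is left out, at 0 to 2 counts.

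Chrng (mm10 chromosome 1, 87204657 to 87212694, plus strand), the gamma subunit of embryonic receptors, stood at 1240 and 208 CPM in AUF1 total and at 143 and 39.3 CPM in WT total for replicates 1 and 2. On polysomes it stood at 764 and 144 CPM in AUF1 and at 105 and 28.9 CPM in WT. Both AUF1 libraries were above both WT libraries in each fraction, and replicate 2 of AUF1 lay not far above replicate 1 of WT. Within replicates 1 and 2 the log2 difference was 3.12 and 2.40 in total RNA and 2.86 and 2.31 on polysomes. For total RNA the fit gave a log2 fold change of 2.99 ± 1.28 (SE; edgeR adjusted p = 0.383), and 2.77 ± 0.27 with an edgeR adjusted p of 0.000415 when the replicate number was a block.

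Chrnd (chromosome 1, 87190607 to 87200070, plus strand), the delta subunit, lies beside Chrng on the same strand. It stood at 871 and 179 CPM in AUF1 total and at 97.8 and 43.6 CPM in WT total. On polysomes the values were 508 and 165 CPM in AUF1 and 76.0 and 46.7 CPM in WT. The genotypes did not overlap in either fraction. Log2 differences within replicates 1 and 2 were 3.15 and 2.04 in total RNA and 2.74 and 1.82 on polysomes. The fit gave 2.89 ± 0.93 in total RNA (edgeR adjusted p = 0.237) and, with the block, 2.65 ± 0.36 (edgeR adjusted p = 0.00161).

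Chrna1 (chromosome 2, 73563215 to 73580338, minus strand), the alpha subunit that binds acetylcholine, stood at 2572 and 184 CPM in AUF1 total and at 924 and 111 CPM in WT total. On polysomes it stood at 1856 and 132 CPM in AUF1 and at 583 and 76.4 CPM in WT. Replicate 2 of AUF1 lay below replicate 1 of WT, so the genotypes overlapped, yet within each number AUF1 was the higher. These differences were 1.48 and 0.74 log2 units in total RNA and 1.67 and 0.79 on polysomes. The fitted value was 1.41 ± 1.78 in total RNA (edgeR adjusted p = 0.836), and with the block 1.11 ± 0.28 (edgeR adjusted p = 0.0317). That call was lost without AUF1 total replicate 1 (edgeR adjusted p = 0.144), WT total replicate 1 (0.395) or WT total replicate 2 (0.118).

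Chrnb1 (chromosome 11, 69784036 to 69795943, minus strand), the beta subunit, stood at 220 and 50.2 CPM in AUF1 total and at 78.5 and 17.7 CPM in WT total. On polysomes it stood at 170 and 37.3 CPM in AUF1 and at 51.9 and 12.6 CPM in WT. The genotypes overlapped across numbers but the differences within them were close, at 1.49 and 1.50 log2 units in total RNA and 1.71 and 1.56 on polysomes. With the block the fit gave 1.50 ± 0.21 in total RNA (edgeR adjusted p = 0.00218), against 1.49 ± 1.18 without it (edgeR adjusted p = 0.687).

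Chrne (chromosome 11, 70614883 to 70619216, minus strand), the adult epsilon subunit, had 1 and 0 counts in AUF1 total, 0 and 0 in WT total, 2 and 0 in AUF1 polysome and 2 and 0 in WT polysome. It did not pass the filter on low counts and was not tested. Of the counts for Chrne and Chrng together, Chrne made up 0.00282% in AUF1 total replicate 1 (exact Clopper-Pearson 95% interval 7.15e-05% to 0.0157%, counting error only) and 0.054% in WT polysome replicate 1 (same method, 0.00653% to 0.195%). In the 5 libraries with 0 Chrne counts the limit was set in another way, as 3 counts of the total, and came to 0.0534% in AUF1 total replicate 2, 0.0851% and 0.268% in WT total, 0.0769% in AUF1 polysome replicate 2 and 0.33% in WT polysome replicate 2. A change in Chrne was not detectable at this depth.

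The make-up of the receptor mRNAs differed between genotypes within both numbers. Of the summed Chrna1, Chrnb1, Chrnd and Chrng level in CPM per kb of exon, Chrna1 held 47.4% and 25.3% in AUF1 total and 68.9% and 45.9% in WT total (replicates 1 and 2). Chrng held 24.1% and 30.0% in AUF1 total and 11.2% and 17.2% in WT total. The Chrng share was thus above that of WT in both AUF1 libraries. This was not particular to Chrng, since the Chrnd share was also higher in AUF1 within each number. Chrnd held 21.4% and 32.8% in AUF1 total and 9.73% and 24.2% in WT total. On polysomes Chrna1 held 51.1% and 23.2% in AUF1 and 65.9% and 40.0% in WT, and Chrng 22.2% and 26.7% in AUF1 and 12.5% and 15.9% in WT. Chrnd held 18.7% and 38.8% in AUF1 polysome and 11.5% and 32.6% in WT polysome. Chrnb1 stayed between 7.04% and 12.8% in the 8 libraries, and shares are descriptions with no test.

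**Figure D2:**
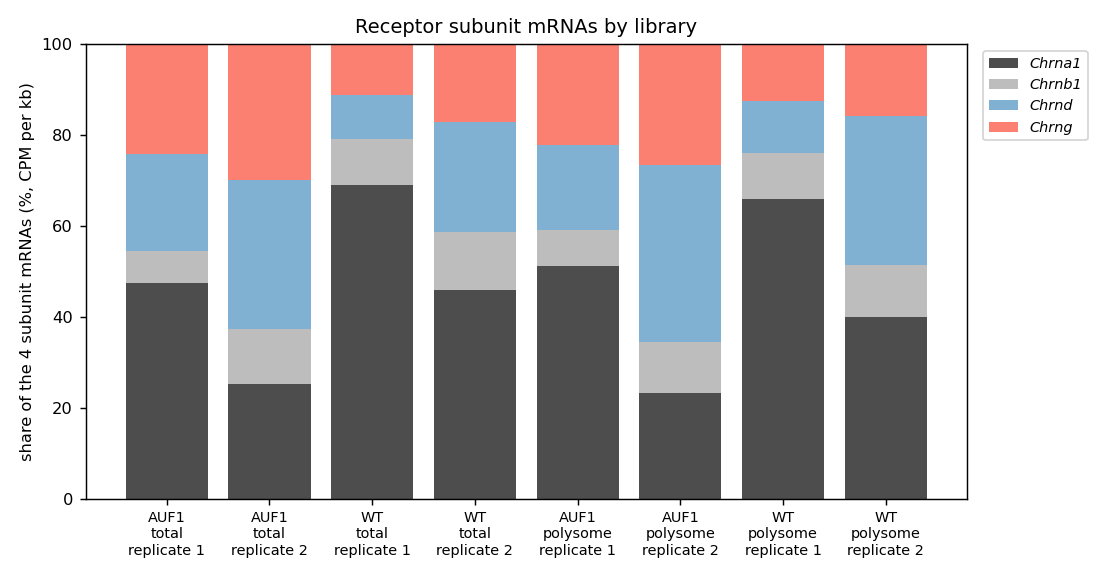
Share of each of 4 receptor subunit mRNAs in their summed CPM per kb of exon, in percent, 1 bar per library, with AUF1 left of WT in each fraction. Chrna1 (dark) makes up less of the bar in AUF1 than in WT of the same number, 47.4% against 68.9% in total RNA of replicate 1, and less in replicate 2 than in replicate 1.

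Dok7 (chromosome 5, 35056766 to 35087839, plus strand), the adaptor of Musk, stood at 201 and 86.0 CPM in AUF1 total and at 29.4 and 21.6 CPM in WT total. Polysome levels were 134 and 90.9 CPM in AUF1 and 24.5 and 26.7 CPM in WT. The genotypes did not overlap, with log2 differences of 2.77 and 1.99 in total RNA and 2.45 and 1.77 on polysomes. The fit gave 2.49 ± 0.47 in total RNA (edgeR adjusted p = 0.0828) and 2.42 ± 0.32 with the block (edgeR adjusted p = 0.0015).

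Musk (chromosome 4, 58285960 to 58374303, plus strand), the kinase itself, stood at 40.3 and 20.4 CPM in AUF1 total and at 29.5 and 11.7 CPM in WT total. Polysome levels were 67.4 and 20.0 CPM in AUF1 and 40.0 and 10.7 CPM in WT. The genotypes overlapped, and differences within a number, 0.45 and 0.79 in total RNA and 0.75 and 0.89 on polysomes, were under 1 log2 unit. With the block the fit gave 0.64 ± 0.28 (edgeR adjusted p = 0.173) in total RNA and 0.81 ± 0.28 (edgeR adjusted p = 0.0869) on polysomes, neither past the threshold.

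Lrp4 (chromosome 2, 91457511 to 91513779, plus strand), the agrin receptor, stood at 369 and 157 CPM in AUF1 total and at 375 and 228 CPM in WT total. In polysome RNA there were 318 and 172 CPM in AUF1 and 413 and 283 CPM in WT. It was the 1 tested gene lower with AUF1 within both numbers and both fractions, by log2 differences of -0.03 and -0.54 in total RNA and -0.37 and -0.71 on polysomes. The polysome value of -0.55 ± 0.23 with the block did not pass (edgeR adjusted p = 0.155).

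Rapsn (chromosome 2, 91035620 to 91045729, plus strand), the scaffold under the receptor, stood at 295 and 204 CPM in AUF1 total and at 219 and 196 CPM in WT total. On polysomes it stood at 218 and 268 CPM in AUF1 and at 211 and 267 CPM in WT. The genotypes overlapped, with log2 differences of 0.43 and 0.06 in total RNA and 0.05 and 0.01 on polysomes. The fitted 0.27 ± 0.29 in total RNA did not pass (edgeR adjusted p = 0.793). Gm13778 overlaps it on the opposite strand by 4 exonic bases, and the sources used here do not say whether the counts used strand.

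Ache (chromosome 5, 137287519 to 137294466, plus strand) was scarce, with 104 and 9 counts in AUF1 total, 43 and 10 in WT total, 75 and 8 in AUF1 polysome and 70 and 13 in WT polysome. That is 3.64 and 0.33 CPM in AUF1 total and 1.74 and 0.35 CPM in WT total. Its log2 differences had opposite signs in the 2 numbers, 1.04 and -0.06 in total RNA and 0.22 and -0.40 on polysomes. The fit gave 0.93 ± 1.47 in total RNA (edgeR adjusted p = 0.88). Its opposite-strand neighbour Gm42456 shares 98 exonic bases with it.

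**Figure D3:**
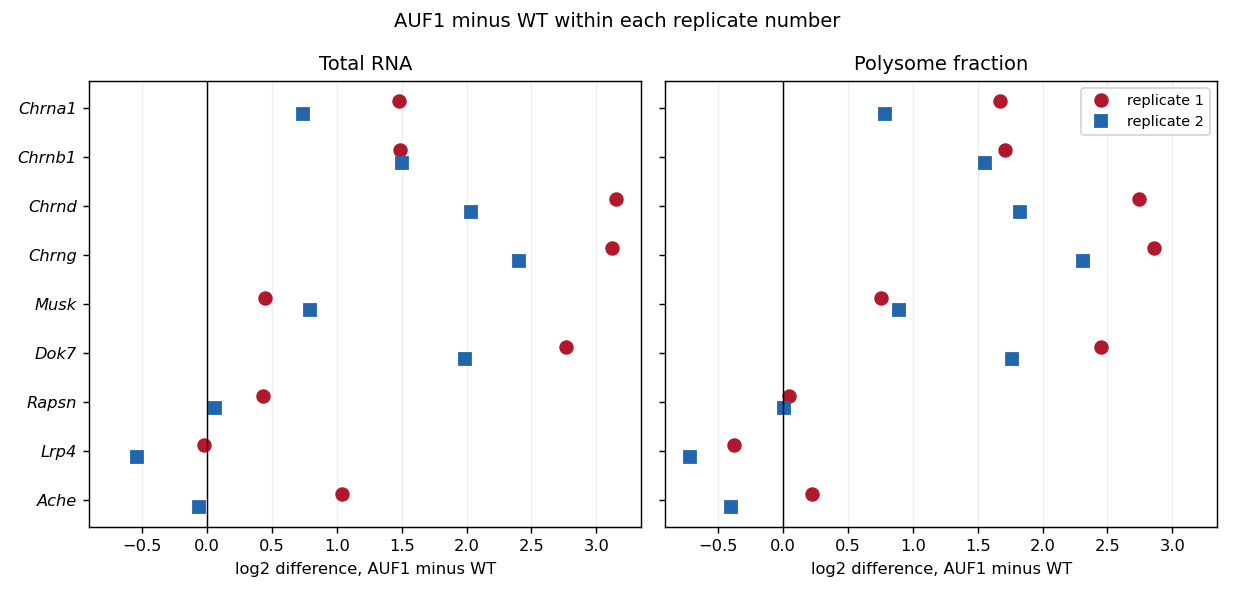
AUF1 minus WT in log2 CPM within replicate 1 (circles) and replicate 2 (squares), for total RNA on the left and polysomes on the right, 1 row per gene. Chrnd, Chrng and Dok7 lie between 1.77 and 3.15 in the 4 differences, Chrnb1 between 1.49 and 1.71, and Lrp4 lies below 0 in each.

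By edgeR's quasi-likelihood test without the block, 0 of 9 members passed an adjusted p of 0.05 in total RNA, where 1.02% of 13167 genes did, and 0 of 9 on polysomes, where 0.349% did. At an unadjusted p under 0.05 there were 2 in each, Chrnd and Dok7, where 13.7% of all genes were in total RNA and 14.1% on polysomes. DESeq2 called 2 in total RNA (Chrnd and Dok7), where it called 6.72% of all genes, and 1 on polysomes (Dok7), where it called 6.5%. With the replicate number as a block, 5 of 9 were higher and 0 lower in total RNA, against 6.99% of all genes higher, 6.15% lower and 13.1% in either direction. On polysomes the counts were also 5 and 0, against 6.71%, 6.33% and 13%. The 5 were Chrna1, Chrnb1, Chrnd, Chrng and Dok7 in both. An unadjusted p under 0.05 was reached with the block by 6 of 9 in total RNA and 7 of 9 on polysomes, where 27.6% and 28.1% of all genes reached it. Their blocked log2 fold changes on polysomes were 2.59 ± 0.26 for Chrng, 2.24 ± 0.35 for Chrnd, 2.07 ± 0.32 for Dok7, 1.64 ± 0.21 for Chrnb1 and 1.23 ± 0.28 for Chrna1, with edgeR adjusted p from 0.00059 to 0.021. The polysome call of Chrna1 was lost without AUF1 polysome replicate 1 (edgeR adjusted p = 0.194), WT polysome replicate 1 (0.139) or WT total replicate 1 (0.0615). The median log2 fold change of the 9 with the block was 1.11 in total RNA and 1.23 on polysomes, beside -0.02 and -0.01 over all tested genes. In 3 of 9 the genotypes did not overlap and AUF1 was higher, in total RNA, where 22.5% of genes did so, and on polysomes, where 23.6% did. Over 2-fold higher within both numbers were Chrnb1, Chrnd, Chrng and Dok7, 4 of 9 in each fraction, against 5.96% of genes in total RNA and 5.95% on polysomes. Without WT total replicate 1 the block fit called 1 of 9 in total RNA, Chrng (edgeR adjusted p = 0.0227), while Dok7 stood at 0.0593, Chrnd at 0.0635, Chrnb1 at 0.0908 and Chrna1 at 0.395.

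Markers of differentiated muscle moved with the genotype as well. The summed level of the 11 markers was 37432 and 33959 CPM in AUF1 total and 5798 and 6976 CPM in WT total, and 27158 and 37600 CPM in AUF1 polysome and 5032 and 8246 CPM in WT polysome. Without the block 4 of 11 were higher and 0 lower in total RNA and 0 passed on polysomes, where 1.02% and 0.349% of all genes passed. With it 11 of 11 were higher in each fraction, where 6.99% and 6.71% of all genes were. Summed CPM of 9 fibroblast markers was 1535 and 390 in AUF1 total and 4522 and 649 in WT total, and 735 and 403 in AUF1 polysome and 3174 and 686 in WT polysome. Of 8 tested, 0 passed without the block in either fraction (edgeR adjusted p in total RNA 0.208 for Dcn and 0.199 for Mfap5). With it 0 were higher and 4 lower in total RNA, led by Dcn and Mfap5, and 0 higher and 5 lower on polysomes, where 6.15% and 6.33% of all genes were lower. Lum stood at 3.21 and 0.063 CPM in WT polysome and at 0 in the other libraries. The 8 Schwann cell markers summed to 70.0 and 12.4 CPM in AUF1 total and 168 and 34.3 CPM in WT total. On polysomes they summed to 81.0 and 17.4 CPM in AUF1 and 195 and 42.1 CPM in WT. Pmp22 gave most of each sum. Of 6 tested, 0 were higher and 1 lower with the block in each fraction. That gene, Pmp22, fell in total RNA by 1.49 ± 0.23 on the log2 scale with the block (edgeR adjusted p = 0.00343). Without the block its value of -1.36 ± 1.38 did not pass (edgeR adjusted p = 0.776). The scarce Ngfr and Gfap went the other way in total RNA, at 2.87 ± 0.96 and 1.90 ± 0.64 with the block. Neither passed (edgeR adjusted p = 0.0846 and 0.087). Of 9 motor neuron markers 3 were tested and 0 passed, and Tubb3 gave most of their sum of 107 and 45.2 CPM in AUF1 total, 73.0 and 67.5 CPM in WT total, 57.1 and 38.0 CPM in AUF1 polysome and 55.0 and 50.8 CPM in WT polysome. The part of these markers in the receptor results was not tested.

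The question of translation was addressed by setting polysome RNA beside total RNA. None of the 9 genes passed in the interaction of genotype and fraction, nor in polysome against total RNA in AUF1 or in WT, with or without the block. Unblocked, 0% of all genes passed in each of these comparisons; with the block 0% passed in the interaction and 0.0152% in polysome against total RNA of either genotype. An unadjusted p under 0.05 was reached by 0 of 9 in each without the block, where 0.122% of all genes reached it in the interaction, 3.33% in polysome against total RNA of AUF1 and 2.76% in that of WT. With the block it was reached by 0 in the interaction (0.372% of all genes), by Chrng in AUF1 (edgeR unadjusted p = 0.0327; 12.2% of all genes) and by Chrnb1 in WT (0.0286; 8.02% of all genes). DESeq2 called 0 of 9 in each, and 0%, 0.22% and 0.213% of all genes. Polysome minus total in log2 CPM was negative within both numbers of both genotypes for Chrna1 (-0.47 and -0.48 in AUF1, -0.66 and -0.53 in WT), Chrnb1 (-0.37 and -0.43 in AUF1, -0.60 and -0.49 in WT) and Chrng (-0.70 and -0.53 in AUF1, -0.44 and -0.44 in WT). Without the block the SE in WT was 1.75 for Chrna1, 1.16 for Chrnb1 and 1.19 for Chrng, larger than these differences. How many of all genes show the same signs was not counted. For Rapsn the sign followed the replicate number, at -0.43 and 0.40 in AUF1 and -0.05 and 0.45 in WT. Musk was also split by number, with 0.74 and -0.03 in AUF1 and 0.44 and -0.13 in WT.

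Replicates 1 and 2 differed for most of these genes. With genotype and fraction in the model, 7 of 9 were higher in replicate 1 and 0 lower, against 20.8% of all genes higher, 8.97% lower and 29.8% in either direction. Chrna1 had the largest difference of the 9, 3.40 ± 0.22 on the log2 scale (edgeR adjusted p = 3.98e-06), and its CPM in replicate 1 was 14.0 times that in replicate 2 in AUF1 total and 8.36 times in WT total. Ache followed at 2.73 ± 0.34, Chrng at 2.18 ± 0.18, Chrnb1 at 2.13 ± 0.15, Musk at 1.49 ± 0.20, Chrnd at 1.44 ± 0.25 and Lrp4 at 0.85 ± 0.17. Dok7 at 0.53 ± 0.22 (edgeR adjusted p = 0.0998) and Rapsn at 0.01 ± 0.18 (edgeR adjusted p = 0.962) did not pass. The 7 encode membrane or secreted proteins, and Dok7 and Rapsn encode cytoplasmic ones, a grouping made after the values were seen. Dok7 had an edgeR unadjusted p of 0.0377, and the part of protein location was not tested. The sources used here do not say what the replicate number stands for. Libraries of the same number, such as total and polysome RNA of a genotype, may come from the same cells. The fit treats them as independent, so these SE and p-values need not measure the spread between preparations.

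**Figure D4:**
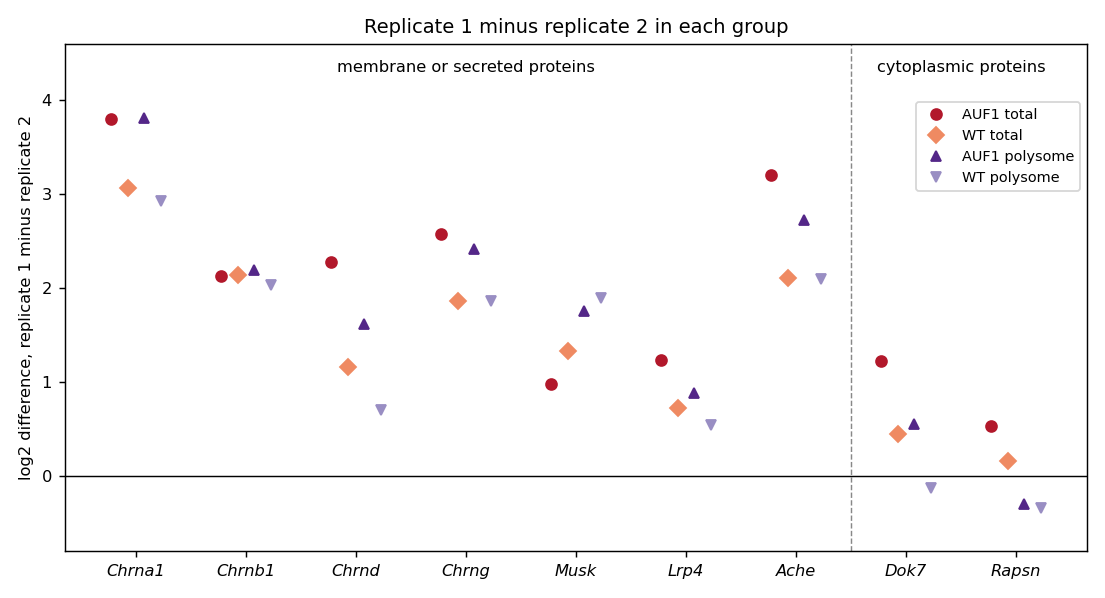
Log2 CPM of replicate 1 minus replicate 2 in each of the 4 groups, 1 column per gene, with genes of membrane or secreted proteins left of the dashed line and genes of cytoplasmic proteins right of it. This grouping was made after the values were seen. Chrna1 lies between 2.93 and 3.81, and Rapsn lies on both sides of 0.

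Helpers of receptor synthesis were also set beside each other by replicate number. Of 9 tested genes for glycosylation and folding, 6 were higher in replicate 1 and 0 lower, where 20.8% and 8.97% of all genes were, with a median log2 difference of 1.93. Between genotypes 0 of 9 passed in either fraction, with or without the block. With the block 13.1% of all genes passed in total RNA and 13% on polysomes, and without it 1.02% and 0.349%. Rer1, which retains unassembled receptor subunits early in the secretory pathway, stood at 186 and 29.4 CPM in AUF1 total and at 177 and 26.8 CPM in WT total. Name families chosen after these values were seen are set beside the 20.8% of all genes higher in replicate 1 and 8.97% lower. Of 175 Tmem (transmembrane protein) genes 128 were higher in replicate 1 and 2 lower. Of 16 endoplasmic reticulum protein genes 12 were higher and 0 lower, and of 20 integrin genes 10 were higher and 1 lower. Of 36 proteasome genes 0 were higher and 1 lower, of 55 Eif (initiation factor) genes 1 was higher and 5 lower, and of 322 Zfp (zinc finger) genes 2 were higher and 19 lower. No test of a difference between families was made. All 8 tested fibroblast markers were higher in replicate 1, while of the 11 muscle markers 0 were higher and 3 lower. The part of these in the members' split was not tested.

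Around the members, of 21 genes of agrin and Musk signalling, 0 passed without the block in either fraction, and 3 were higher and 0 lower with it in each. Counted in either direction, that is near the share of all genes, 13.1% in total RNA and 13% on polysomes. Of all genes 6.99% and 6.71% were higher, and without the block 1.02% and 0.349% passed. The list median in total RNA with the block was -0.01, beside -0.02 over all genes. Among them were Fyn, a Src-family kinase that stabilises receptor clusters, at 0.92 ± 0.22 (edgeR adjusted p = 0.0255), and the Abl-family kinase Abl2 at 0.98 ± 0.24 (0.0305). Fyn stood at 265 and 276 CPM in AUF1 total and at 125 and 165 CPM in WT total. Dnaja3, a chaperone that binds Musk, stood at 0.68 ± 0.23 (edgeR adjusted p = 0.0867).

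Of 18 tested genes of the synaptic matrix and subsynaptic scaffold, 2 were higher and 3 lower with the block in total RNA, where 6.99% and 6.15% of all genes were, and 2 higher and 4 lower on polysomes, where 6.71% and 6.33% were. Without it 0 passed in either fraction. Sntb1, a syntrophin of the dystrophin complex, stood at 81.1 and 251 CPM in AUF1 total and at 6.72 and 21.5 CPM in WT total, a blocked log2 fold change of 3.56 ± 0.31 (edgeR adjusted p = 0.000311). The muscle sodium channel Scn4a rose by 2.40 ± 0.32 (edgeR adjusted p = 0.0015). Lama4, a laminin chain of the synaptic basal lamina, fell by 3.44 ± 0.46 (edgeR adjusted p = 0.00152), with 2.00 and 1.81 CPM in AUF1 total and 28.7 and 14.0 CPM in WT total. Nid2 fell by 1.10 ± 0.25 (edgeR adjusted p = 0.0194), and Col4a5 was the third lower gene.

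Of 8 tested genes of neuregulin signalling and synaptic transcription, 1 was higher and 2 lower with the block in total RNA, against 6.99% and 6.15% of all genes, and 1 higher and 1 lower on polysomes, against 6.71% and 6.33%. None passed without it in either fraction. Erbb3, a neuregulin receptor, stood at 136 and 30.6 CPM in AUF1 total and at 17.8 and 10.7 CPM in WT total, a blocked change of 2.20 ± 0.38 (edgeR adjusted p = 0.0056). Nrg1 fell by 0.81 ± 0.23 (0.0472) and Gabpb2, a subunit of GABP, by 0.90 ± 0.26 (0.0465), while Etv5, an Ets factor of synaptic genes, stood at 0.61 ± 0.27 (0.174; edgeR adjusted p in each case).

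Of 17 tested genes that respond to activity or denervation, 5 were higher and 0 lower with the block in total RNA, beside 6.99% of all genes higher, and 3 higher and 0 lower on polysomes, beside 6.71%. In the fit without it 0 passed in either fraction. Myog, a myogenic factor that is also among the muscle markers, stood at 1934 and 1916 CPM in AUF1 total and at 537 and 596 CPM in WT total. Its blocked change was 1.77 ± 0.24 (edgeR adjusted p = 0.00161). Myod1, another myogenic factor of this list, stood at 0.41 ± 0.29 with the block and did not pass (edgeR adjusted p = 0.389). The part of either factor in the receptor results was not tested. The potassium channel Kcnn3 changed by 1.71 ± 0.26, the kinase Sik1 by 1.21 ± 0.22 and Mef2d by 0.88 ± 0.23, with edgeR adjusted p of 0.00327, 0.00789 and 0.0339, and Ncam1 was the fifth. Levels of Myog were close in replicates 1 and 2 of each genotype in total RNA, in contrast to those of Chrna1. On polysomes Myog stood at 1607 and 2245 CPM in AUF1 and at 481 and 701 CPM in WT, higher in replicate 2.

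Other cholinergic genes lay near 0. Colq, the collagen tail that anchors the esterase at the synapse, stood at 3.26 and 0.41 CPM in AUF1 total and at 4.98 and 1.55 CPM in WT total, with a blocked log2 fold change of -1.12 ± 0.46 (edgeR adjusted p = 0.146). On polysomes it stood at 1.96 and 0.26 CPM in AUF1 and at 4.52 and 1.52 CPM in WT, and fell by 1.72 on the log2 scale with the block (edgeR adjusted p = 0.042), while the value of -1.43 without the block did not pass (edgeR adjusted p = 0.747). Prima1, the membrane anchor, had 0 counts. Of 11 neuronal nicotinic subunits, 2 passed the filter, Chrnb2 at 2.73 and 1.22 CPM in AUF1 total and 2.63 and 1.12 CPM in WT total, and Chrna2 at under 1 CPM in each library. On polysomes Chrna2 stood at 0 and 0 CPM in AUF1 and at 0.54 and 0.16 CPM in WT, lower with the block (edgeR adjusted p = 0.0461) and not past the threshold without it (edgeR adjusted p = 0.287).

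Set per kb of exon, the order of levels in AUF1 total replicate 1 was led by Chrna1 at 586 CPM per kb, with Chrng at 298, Chrnd at 265, Rapsn at 164, Chrnb1 at 87.0, Dok7 at 47.0, Lrp4 at 35.1, Musk at 10.7 and Ache at 0.788. In AUF1 total replicate 2 it was led by Rapsn at 113 CPM per kb, with Chrnd at 54.5, Chrng at 49.9 and Chrna1 at 42.0. Neighbours in this order changed places between the replicates, so that no order among Chrna1, Chrnd, Chrng and Rapsn exceeded the spread. Musk and Ache were the lowest of the tested members in both.

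Across the 8 libraries, the genes whose log2 CPM followed a member most closely, of 9637 compared, were for Chrna1 Sirpa (Pearson's r 0.998) and Ddr1 (0.996), for Chrnb1 Tmem62 (0.993) and Cmklr1 (0.992), for Chrnd Srl (0.996), and for Chrng Tmem38a (0.998) and Jsrp1 (0.993). Dok7 was followed by Xirp1 (0.991) and Asb2 (0.991), Musk by Yars2 (0.990) and Rtn4 (0.987), Rapsn by Mcrs1 (0.995) and Snx11 (0.984), Lrp4 by Sema4c (0.998) and Tmem39b (0.993), and Ache by St3gal1 (0.998) and Stard3 (0.997). Among the members, Chrnd and Chrng had r of 0.980, Chrna1 and Ache 0.952, and Chrna1 and Rapsn 0.135. These are descriptions over 8 libraries that share genotype, fraction and replicate number.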

How the data were processed

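Gene counts of 8 C2C12 libraries were analysed, 2 in each of 4 groups (AUF1 or WT, total RNA or RNA on heavy polysomes). Per the labels' protocols, RNA was cleaned with an RNeasy kit and 500 ng entered a NEBNext Ultra preparation. The libraries titled High were read as heavy polysomes. Titles number the replicates 1 and 2, and descriptions call the second Rep3. The deposited table holds raw counts, by gene symbol. Per the submitters' processing notes, the authors used STAR, Bowtie, SAMtools, cutadapt and Trimmomatic on mm10. The sources used here give no versions, counter, strandedness or gene models. Summary lines (reads outside genes, 6.04% to 7.23%, and reads of more than 1 gene, 0.254% to 0.389%) were left out.

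Genes kept by filterByExpr (13167) were scaled by TMM and fitted with edgeR 4.0.16 (R 4.3.3) by quasi-likelihood, with 1 coefficient per group over 8 libraries and 4 residual degrees of freedom. Tests were two-sided, with Benjamini-Hochberg adjustment over the 13167 genes. SE was taken as the absolute log2 fold change divided by √F. The alternatives were the replicate number as a block (3 residual degrees of freedom), DESeq2 1.42.0, its size factors, no filter, the 2 compared groups alone, and each library left out. Replicates 1 and 2 were compared by the number's coefficient in the block fit. An exact permutation test of 2 against 2 libraries cannot go below p = 0.333, so none is given. Positions come from GENCODE M21 and promoters from RefSeq. Intervals and limits cover counting error only.

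The members and lists were chosen with earlier results of these data known. Named are the 10 members, Hnrnpd, up to 4 genes per list with the smallest p in total RNA with the block, and the 2 genes most like each member; some that this rule names are not reported here. Rer1, Ncam1, Myod1, Prima1, Col4a5, Chat, Mnx1, Isl1, Slc5a7, Sox10, S100b, Lum and the name families were chosen after their values were seen. So was the grouping of members by protein location.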

Additional observations from a re-analysis of the deposited data

Results flagged for a closer look

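Ache was singled out because polysome minus total RNA had opposite signs in the genotypes. It was -0.63 and -0.14 in AUF1 (log2 CPM, replicates 1 and 2) and 0.18 and 0.20 in WT. That contrast of signs is not a test. The edgeR interaction was -0.80 ± 2.07 and did not pass (edgeR adjusted p = 1). These values rest on 75 and 8 counts in AUF1 polysome, 104 and 9 in AUF1 total, 70 and 13 in WT polysome and 43 and 10 in WT total.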

How the results depend on the processing

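The replicate block changed the calls most. In total RNA 5 of 9 members passed with the block and 0 without it, and 1730 against 134 of all genes; on polysomes the counts were 5 and 0, and 1717 against 46. DESeq2 called 2 members in total RNA and 1 on polysomes, with 885 and 856 genes in all. With DESeq2's size factors in edgeR, or with the 2 compared groups alone, 0 members and 0 genes passed, and without the filter 0 members and 166 and 94 genes. Leaving out 1 library gave 0 members without the block, and with it 1 to 5 in total RNA and 4 to 6 on polysomes (329 to 2975 and 592 to 3011 genes). Each such fit leaves 1 library in a group, so the 0 without the block says nothing about the members in particular. Between replicates 1 and 2 the leave-one-out fits called 7 to 8 members, beside 2590 to 4201 of all genes. With the block, Chrna1 in total RNA lost its call without AUF1 total replicate 1 (edgeR adjusted p = 0.144), WT total replicate 1 (0.395) or WT total replicate 2 (0.118), and on polysomes without WT total replicate 1 (0.0615), AUF1 polysome replicate 1 (0.194) or WT polysome replicate 1 (0.139). Chrnb1, Chrnd, Chrng and Dok7 kept theirs on polysomes in each such fit. Hnrnpd in total RNA lost its unblocked call with DESeq2's size factors (edgeR adjusted p = 0.0501), with the 2 groups alone (0.251) and in each fit without 1 library.

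Signs turned round for several members, Chrna1 among them, whose call with the block is given above; its reversals came in fits without the block, and with it the leave-one-out values ran from 0.78 to 1.37 in total RNA and from 0.92 to 1.55 on polysomes. Leaving out 1 library, the log2 fold change in total RNA ran from -1.52 to 3.50 for Chrna1, -0.058 to 1.25 for Musk, -0.17 to 0.58 for Rapsn, -0.99 to 0.29 for Lrp4 and -1.67 to 2.35 for Ache. On polysomes it ran from -1.32 to 3.70 for Chrna1, -0.34 to 2.02 for Musk, -0.21 to 0.28 for Rapsn and -2.01 to 1.66 for Ache. Between replicates it ran from -0.18 to 0.13 for Rapsn and, outside the members, -0.32 to 0.078 for Hnrnpd. Rapsn on polysomes was -0.057 with the 2 groups alone, Ache on polysomes -0.031 with the replicate block, and Rapsn between replicates -0.057 with DESeq2 and -0.057 with its size factors. The cause was not tested. The interaction and the polysome against total comparisons called 0 members under every alternative run, and there the sign turned round in at least 1 leave-one-out fit for each of Chrna1, Chrnb1, Chrnd, Chrng and Dok7.

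Differences between replicates 1 and 2 correlated between groups with r from 0.67 to 0.90 over 11158 genes, which are not independent. The number was used as a block, and to set libraries side by side, because it separated the libraries of every group; with 2 numbers and no label saying what they share, libraries of the same number are not known to come from the same culture, and calls made with the block rest on that choice. Counts of Ache and Chrne limit what can be said of them.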
